A study of Mus musculus with 12 samples.

Results

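The angiopoietins and their Tie receptors were followed through 8 genes, taken by symbol from a count table of 50559 genes measured in 12 mouse retina libraries. The 8 genes were the ligands Angpt1, Angpt2 and Angpt4, the receptors Tek and Tie1, the receptor phosphatase Ptprb, and the angiopoietin-like genes Angptl2 and Angptl4. All 8 passed the filter on low counts in every comparison, and the lowest count of any of them in any library was 20 reads, for Angpt4.

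All mice were WT C57BL6/J, and retinas were taken at P28, at 4 weeks of age. At P1 every pup received 30 µg of antibody, either a rat IgG isotype control or APB5, a rat monoclonal antibody against mouse PDGFRB, the receptor through which pericytes are recruited to vessels. The IgG and APB5 groups had no further treatment, and the IgG+Mino and APB5+Mino groups received the tetracycline minocycline by daily intraperitoneal injection from P5 to P27, at 45 mg/kg. Each of the 4 groups had 3 mice, with 1 library taken to be 1 mouse. The antibody was given once, so the groups model a transient block of PDGFRB and not a deletion. The labels give no sex, and what the replicate numbers stand for is not stated.

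Angiopoietin 1 is made mainly by mural and other perivascular cells and activates the endothelial receptor tyrosine kinase Tie2, the product of Tek, which keeps vessels quiescent. Angiopoietin 2 is made by endothelial cells, is stored in their Weibel-Palade bodies and acts on Tie2 as an agonist or an antagonist depending on context, and angiopoietin 4 is a further Tie2 ligand with a role in retinal veins. Tie1 is a receptor without a well-defined ligand of its own that modulates Tie2, and VE-PTP, the product of Ptprb, removes phosphate from Tie2. In the retina the system is known for its part in vessel maturation and in diabetic vascular leakage.

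Total counts were 52740545 to 59411044 per library, and levels are given as CPM, which relates the counts of a gene to the library total after scaling by TMM factors. On this scale 3 counts corresponded to 0.0448 to 0.0587 CPM. All 12 endothelial markers (among them Pecam1 and Cdh5, with group means of 10.96 to 13.7 and 4.45 to 8.12 CPM) had reads in every library. The transcript of the receptor that APB5 binds, Pdgfrb, averaged 14.7 to 23.2 CPM per group. APB5 replicate 3 stood apart, at 101 on the first principal component of all genes (48.2% of the variance) against −42.0 to 17.5 for the other libraries. Its summed level of 5 fibroblast markers was 721.7 CPM against at most 37.4 elsewhere, with Lum, 1 of the 5, at 0 in some libraries, and its summed level of 8 rod markers was 12094 CPM against at least 46624 elsewhere. Its summed levels were also the highest for 7 smooth muscle markers (269.4 CPM against at most 21.5), 3 astrocyte markers (1080 against at most 173.3), 10 microglia and macrophage markers (416.2 against at most 92.2) and 9 markers of pigment epithelium and melanocytes (936.1 against at most 225.8). Its 10 pericyte markers summed to 418.3 CPM against at least 589.0 elsewhere, a sum that Vtn dominates in the other libraries (80.5 to 89.9%), and the other 9 pericyte markers summed to 237.7 CPM against at most 125.8 elsewhere. The part of these cells in the results was not tested beyond the values without this library. Xist, transcribed from the inactive X chromosome of female cells, ranged from 815 to 2662 CPM in 5 libraries (all of IgG and the third replicate of both APB5 and APB5+Mino) and did not exceed 0.680 CPM in the other 7. In IgG+Mino against IgG, Xist status and minocycline therefore cannot be told apart. The interaction of antibody and minocycline draws on that comparison and carries the same limit. In APB5 against IgG, APB5 replicates 1 and 2 were low in Xist and all IgG libraries were high. Without APB5 replicate 3, Xist status and antibody therefore cannot be told apart there. This holds for each value of APB5 against IgG given below without that library. In whole retina, fewer cells of a type and less RNA per cell cannot be told apart either.

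Per length, Ptprb had the highest mean level of the 8 genes over the 12 libraries, at 1.24 ± 0.226 CPM per kb of merged exons (SD, n = 12). Tie1 (1.06 ± 0.516), Angpt2 (1.04 ± 0.537) and Angptl2 (0.994 ± 1.04) followed in CPM per kb. Tek (0.760 ± 0.297), Angptl4 (0.647 ± 0.318), Angpt4 (0.449 ± 0.276) and Angpt1 (0.197 ± 0.132) came last. Most neighbours in this order overlapped. Tie1 was above Angpt2 in 5 of 12 libraries, Angpt2 above Angptl2 in 7, Angptl2 above Tek in 6, Tek above Angptl4 in 7 and Angptl4 above Angpt4 in 8, whereas Ptprb was above Tie1 in 10 and Angpt4 above Angpt1 in all 12.

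**Figure D1:**
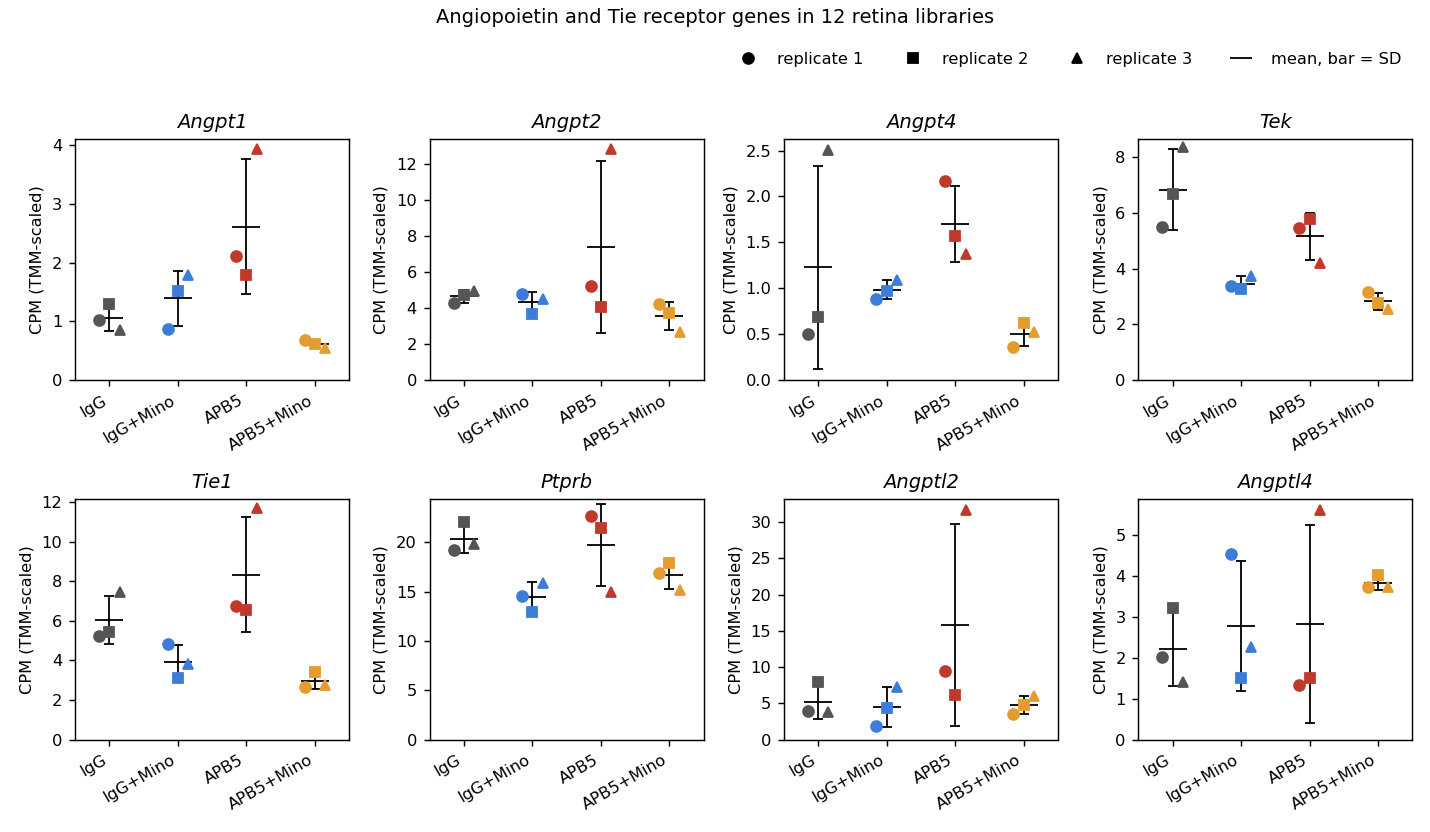
Each panel plots the TMM-scaled CPM (y axis, linear from 0) of a gene in the 12 libraries by group, with the shape of a point giving its replicate number and the black bars the mean and SD of 3 libraries. APB5 replicate 3 is the highest point for Angpt1, Angpt2, Tie1, Angptl2 and Angptl4, and the 3 APB5+Mino libraries lie below the 3 APB5 libraries for Angpt1, Angpt4, Tek, Tie1 and Angptl2.

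A gene was called when its adjusted p in edgeR's quasi-likelihood test was at most 0.05 over all genes tested and its log2 fold change was at least 1 in size. In APB5+Mino against APB5, which asks what minocycline did after the antibody, 3 of the 8 genes were called, all lower in APB5+Mino: Angpt1, Angpt4 and Tie1. Of all genes tested in this comparison 1.66% were called and 0.819% were called lower. At an unadjusted p under 0.05 the count was 5 of 8 (35.9% of all genes), DESeq2 called 4 (8.07% of all genes), and 5 of 8 had groups that did not overlap, all lower (46.3% of all genes did not overlap, and 22.8% did so with the lower values in APB5+Mino). The median log2 fold change of the 8 genes was −1.29, against −0.02 over all genes. Libraries of the same replicate number deviated together weakly in this comparison (correlations of 0.134 to 0.182), and they also share Xist status here. The calls above come from a fit without the replicate number. When that number entered the fit as a block, edgeR called 0 of the 8 and 0 of all genes, at adjusted p = 0.0641 for Angpt1, 0.0642 for Angpt4 and 0.0641 for Tie1. Without APB5 replicate 1, or without any 1 of the 3 APB5+Mino libraries, edgeR called 0 of the 8 and at most 1 of all genes, and without APB5 replicate 2 or 3 it called 4 of the 8 (8.59% and 4.48% of all genes). Scaled by library size only, 0 of the 8 were called, with adjusted p from 0.0502 to 0.0516 for Angpt1, Angpt4 and Tie1.

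None of the 8 was called in APB5 against IgG, the effect of the antibody alone, where edgeR called 0% of all genes. There 2 had an unadjusted p under 0.05 (7.23% of all genes), DESeq2 called 0 (0.43% of all genes), and the groups of 1 did not overlap (15.7% of all genes). The median log2 fold change of the 8 was 0.47, against 0.00 over all genes, and 6 were higher and 2 lower in APB5. In IgG+Mino against IgG, again 0 were called (0.0298% of all genes), with 3 at an unadjusted p under 0.05 (8.37% of all genes), 0 called by DESeq2 (0.114% of all genes), and 3 with groups that did not overlap, all lower (14.4% of all genes in either direction, 7.35% lower). In APB5+Mino against IgG+Mino, the antibody under minocycline, Angpt1 alone was called, and it was lower. All genes were called there at 1.23%, and at 0.349% in the lower direction, 2 of the 8 had an unadjusted p under 0.05 (29.3% of all genes), and 3 did not overlap, all lower (35.2% of all genes in either direction, 17.6% lower). DESeq2 called 1 of the 8 there, Angpt1 (1.56% of all genes). The medians of the 8 in these 2 comparisons were −0.27 and −0.28, against −0.01 over all genes in both.

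The interaction asks whether the minocycline effect after APB5 differed from that after IgG. It called 0 of the 8 genes with edgeR (0.0141% of all genes), with 2 at an unadjusted p under 0.05 (17.1% of all genes), Angpt1 and Tie1. DESeq2 called 1, Angpt1 (2.22% of all genes). The 5 comparisons share libraries and are not independent of each other.

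**Figure D2:**
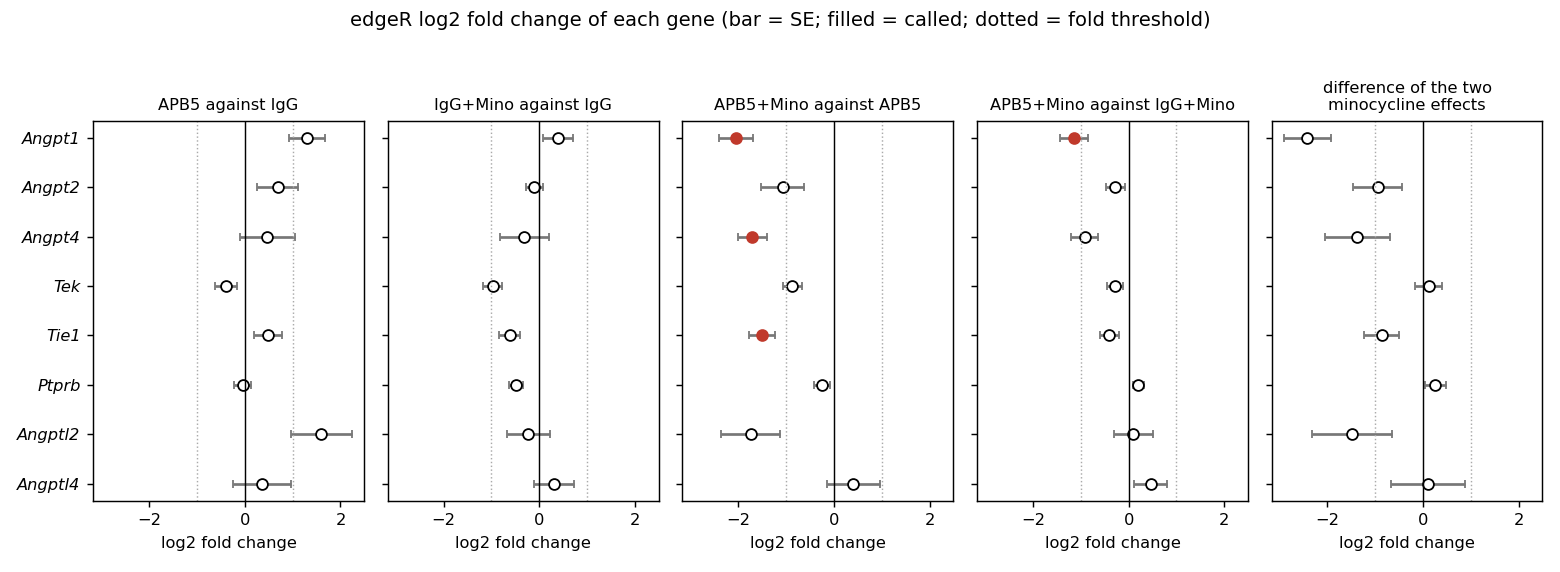
The edgeR log2 fold change of each gene (x axis) with its SE is plotted for the 4 comparisons of groups and for the difference between the minocycline effects after APB5 and after IgG; filled points were called and dotted lines mark the fold threshold. The called genes are Angpt1, Angpt4 and Tie1 in APB5+Mino against APB5, at −2.05, −1.70 and −1.50, and Angpt1 in APB5+Mino against IgG+Mino, at −1.14.

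Among the ligands, Angpt1 (chr15:42288058-42540417, minus strand, GRCm39) is the agonist of Tie2. It was measured at 1.03, 1.30 and 0.846 CPM in IgG replicates 1 to 3 and at 2.11, 1.79 and 3.93 CPM in APB5. In IgG+Mino it was at 0.869, 1.52 and 1.78 CPM, and in APB5+Mino at 0.680, 0.607 and 0.545 CPM. The APB5 libraries were all above the IgG libraries, and the APB5+Mino libraries were below every other library of the study. The log2 fold change of APB5 against IgG was 1.29 ± 0.374 (SE), 2.45-fold, with an unadjusted edgeR p of 0.00971 and an adjusted p of 0.664. Without APB5 replicate 3 it was 0.865.

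Angpt1 fell 4.15-fold in APB5+Mino against APB5, from 2.61 ± 1.15 to 0.611 ± 0.0675 CPM (SD, n = 3 each), a log2 fold change of −2.05 ± 0.356 (SE) with an adjusted p of 0.0461 in edgeR. It also fell in APB5+Mino against IgG+Mino, by 1.14 on the log2 scale (SE 0.293, adjusted p = 0.0481, edgeR), from 1.39 ± 0.470 CPM (SD, n = 3). In IgG+Mino against IgG its log2 fold change was 0.38 ± 0.317 (SE), with an adjusted p of 0.716 in edgeR. The difference between the 2 minocycline effects was −2.42 ± 0.487 (SE) on the log2 scale, with an unadjusted p of 0.000305, an adjusted p of 0.124 in edgeR and 0.00120 in DESeq2.

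Both Angpt1 calls were lost when some libraries were left out. For APB5+Mino against APB5 the adjusted edgeR p was 0.105 without APB5 replicate 1, and 0.117, 0.214 and 0.205 without APB5+Mino replicates 1, 2 and 3. The log2 fold change stayed between −2.27 and −1.62. It was −1.62 with an adjusted p of 0.00342 without APB5 replicate 3, and in the 4 libraries low in Xist it was −1.55 with an adjusted p of 0.0232. Those 4 libraries also leave out APB5 replicate 3, so the 2 fits are not independent, here and for the other genes below. The call against IgG+Mino was lost without IgG+Mino replicate 2 or 3 (adjusted p = 0.0809 and 0.143) and without APB5+Mino replicate 1, 2 or 3 (0.0854, 0.174 and 0.187), with the log2 fold change between −1.37 and −0.94. It was also lost by library size only (0.0509, with 1.26% of all genes called) and with all 12 libraries in one fit (0.155, with 0% of all genes called). The Xist-low libraries of that comparison are those without APB5+Mino replicate 3. Mural cells are a known source of Angpt1, so their markers were compared between APB5 and APB5+Mino as well. The 10 pericyte markers together summed to 418.3 to 748.0 CPM in APB5 and to 589.0 to 623.4 CPM in APB5+Mino, which overlapped. All 10 pericyte markers were detected in every library, and the 9 other than Vtn, a sum chosen after the values were seen, summed to 125.8, 125.0 and 237.7 CPM in APB5 and to 74.8, 78.6 and 70.3 CPM in APB5+Mino, without overlap. Vtn itself was at 439.4 ± 230.4 and 529.6 ± 19.1 CPM (SD, n = 3 each). The median log2 fold change of the 10 was −0.74, with 8 lower and Rgs5 called (1.66% of all genes). The Rgs5 call was lost with the replicate block, where edgeR called 0 of all genes. The 7 smooth muscle markers, of which Actg2 and Cnn1 were at 0 in some libraries, summed to 19.2 to 269.4 CPM in APB5 and to 10.04 to 13.3 CPM in APB5+Mino. The part of mural cell content in the Angpt1 difference was not tested.

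Angpt2 (chr8:18739202-18791603, minus strand, GRCm39) stood at 4.27, 4.73 and 4.94 CPM in IgG, 4.76, 3.65 and 4.53 CPM in IgG+Mino, and 4.22, 3.72 and 2.69 CPM in APB5+Mino. In APB5 it was at 5.24, 4.03 and 12.8 CPM. The last library, APB5 replicate 3, was the highest of the 12, the other 2 APB5 libraries lay within or near the range of the other groups, and the APB5+Mino libraries were just below those of IgG. The log2 fold change was 0.68 ± 0.429 (SE) in APB5 against IgG (adjusted p = 0.705, edgeR), 0.00 without APB5 replicate 3. For APB5+Mino against APB5 it was −1.07 ± 0.454 (SE) (adjusted p = 0.140, edgeR), and −0.39 without that library.

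Angpt2 expressed relative to Angpt1, a ratio chosen after the values were seen, averaged 4.54 ± 1.15 in IgG and 2.67 ± 0.533 in APB5 (SD, n = 3 each). In APB5+Mino it averaged 5.76 ± 0.716 and in IgG+Mino 3.47 ± 1.74. The APB5 libraries, at 2.48, 2.26 and 3.27, lay below all 3 IgG and all 3 APB5+Mino libraries, with a two-sided exact permutation p of 0.1 for each, the smallest that 3 against 3 libraries can give.

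Angpt4 lies on the plus strand of chromosome 2 (chr2:151753127-151787257, GRCm39). In IgG it was at 0.507, 0.683 and 2.50 CPM, in IgG+Mino at 0.887, 0.974 and 1.09 CPM, in APB5 at 2.17, 1.57 and 1.37 CPM, and in APB5+Mino at 0.358, 0.626 and 0.526 CPM. The APB5+Mino libraries were all below the APB5 and the IgG+Mino libraries, and IgG replicate 3 was the highest of the 12. Angpt4 fell 3.26-fold in APB5+Mino against APB5, from 1.70 ± 0.414 to 0.504 ± 0.136 CPM (SD, n = 3 each), with a log2 fold change of −1.70 ± 0.306 (SE) and an adjusted p of 0.0461 in edgeR.

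The Angpt4 call was lost without APB5 replicate 1 (adjusted p = 0.105) and without APB5+Mino replicate 1, 2 or 3 (0.117, 0.214 and 0.205, edgeR), at log2 fold changes between −1.87 and −1.50. Leaving out APB5 replicate 3 gave −1.83 with an adjusted p of 0.00476. Against IgG+Mino, APB5+Mino had a log2 fold change of −0.92 ± 0.275 (SE) for Angpt4, with an adjusted p of 0.0679 in edgeR and 0.0498 in DESeq2, under the fold threshold in both. Without IgG replicate 3 the Angpt4 value of IgG+Mino against IgG turned from −0.31 to 0.69.

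Of the receptors, Tek (Tie2; chr4:94627291-94763224, plus strand, GRCm39) was lower in the minocycline libraries of both antibody arms. In IgG it was at 5.47, 6.67 and 8.34 CPM and in APB5 at 5.46, 5.79 and 4.21 CPM. In IgG+Mino it was at 3.37, 3.26 and 3.75 CPM, and in APB5+Mino at 3.17, 2.76 and 2.54 CPM. All 6 minocycline libraries were below all 6 libraries without it, and the APB5+Mino libraries were below the IgG+Mino libraries.

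The log2 fold change of Tek was −0.97 ± 0.199 (SE) in IgG+Mino against IgG, 1.96-fold, with an unadjusted p of 0.000699 and an adjusted p of 0.585 in edgeR. DESeq2 gave an adjusted p of 0.00826, with a fold change just under the threshold, and so made no call. The value of APB5+Mino against APB5 was −0.87 ± 0.196 (SE), 1.83-fold, with an adjusted p of 0.0510 in edgeR and 0.00132 in DESeq2, again under the fold threshold. It was −0.99 (adjusted p = 0.00461) without APB5 replicate 3, where the fold was still under the threshold, and in the Xist-low libraries it was −0.92 (adjusted p = 0.0290). The difference between these 2 minocycline effects was 0.12 ± 0.278 (SE) on the log2 scale (adjusted p = 0.854, edgeR).

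Tie1 (chr4:118328385-118347261, minus strand, GRCm39) was at 5.23, 5.46 and 7.46 CPM in IgG and 6.72, 6.57 and 11.7 CPM in APB5. It was at 4.81, 3.13 and 3.82 CPM in IgG+Mino and 2.67, 3.43 and 2.78 CPM in APB5+Mino. As for Tek, all 6 minocycline libraries were below all 6 others. Tie1 fell 2.83-fold in APB5+Mino against APB5, from 8.33 ± 2.92 to 2.96 ± 0.409 CPM (SD, n = 3 each), with a log2 fold change of −1.50 ± 0.279 (SE) and an adjusted p of 0.0461 in edgeR. It was −0.62 ± 0.222 (SE) in IgG+Mino against IgG (unadjusted p = 0.0197, adjusted p = 0.585, edgeR), and the difference of the 2 was −0.87 ± 0.369 (SE) on the log2 scale (unadjusted p = 0.0360, adjusted p = 0.262, edgeR).

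The Tie1 call was lost without APB5 replicate 1 (adjusted p = 0.105) and without APB5+Mino replicate 1, 2 or 3 (0.118, 0.214 and 0.205, edgeR), with log2 fold changes between −1.65 and −1.16. The lowest in size, −1.16, came without APB5 replicate 3, with an adjusted p of 0.00270. In the Xist-low libraries it was −1.12 with an adjusted p of 0.0198.

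The promoter windows of the 3 genes among these that RefSeq's table holds are shown because Tek and Tie1, and Angpt4 in APB5+Mino against APB5, were lower in the same libraries. Each runs from 250 bases before to 50 after the RefSeq start (GRCm38.p6 table) and was found once in GRCm39, at chr2:151752877-151753176 (plus strand) for Angpt4, chr4:94627276-94627575 (plus strand) for Tek and chr4:118346997-118347296 (minus strand) for Tie1. The GENCODE gene models of Tek and Tie1 start inside these windows, at chr4:94627291 and chr4:118347261. Most of either window therefore lies within the gene model, and sequence further upstream of those starts was not searched. Capitals mark AGGAAG or its reverse CTTCCT, a motif of ETS factors, a family known for its part in endothelial transcription.
Angpt4: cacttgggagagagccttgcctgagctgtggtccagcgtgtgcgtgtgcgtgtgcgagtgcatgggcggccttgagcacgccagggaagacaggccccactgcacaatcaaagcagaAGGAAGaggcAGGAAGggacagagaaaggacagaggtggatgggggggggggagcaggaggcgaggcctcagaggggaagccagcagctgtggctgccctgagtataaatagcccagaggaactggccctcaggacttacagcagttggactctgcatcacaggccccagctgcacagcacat
Tek: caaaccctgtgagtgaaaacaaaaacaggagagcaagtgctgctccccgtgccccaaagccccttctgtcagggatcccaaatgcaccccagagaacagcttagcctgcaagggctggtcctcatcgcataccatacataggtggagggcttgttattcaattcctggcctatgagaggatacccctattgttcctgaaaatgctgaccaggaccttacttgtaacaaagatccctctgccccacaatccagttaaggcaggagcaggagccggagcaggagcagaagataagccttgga
Tie1: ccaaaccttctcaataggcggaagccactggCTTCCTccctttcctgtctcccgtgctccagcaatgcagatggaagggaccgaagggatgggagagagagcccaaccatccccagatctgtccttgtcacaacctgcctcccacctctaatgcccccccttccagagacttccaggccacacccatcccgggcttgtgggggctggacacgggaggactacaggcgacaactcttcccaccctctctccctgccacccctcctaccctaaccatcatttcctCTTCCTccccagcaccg
Counting the start base as 0, the ETS letters begin at positions −133 and −123 in Angpt4, at −219 and 33 in Tie1, and nowhere in the Tek window, and 35.4% of the 32851 promoters in the table hold them. The GATA letters AGATAA or TTATCT occur in the Tek window at position 36 and in 11.2% of all promoters. Neither ACGTG nor its reverse CACGT, the core of hypoxia-response elements (19.6% of all promoters), nor GTAAACA or TGTTTAC, a FOXO motif (3.65%), was found in these 3 windows. These are matches of letters on both strands, without overlap between the motifs. Angptl2 also has an entry, with the ETS letters at −110, so that 4 of the 8 genes have a window. Of these, Angpt4, Tie1 and Angptl2 hold the ETS letters and Tek does not. The genes without a window here are Angpt1, Angpt2, Ptprb and Angptl4.

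Ptprb (chr10:116111428-116225440, plus strand, GRCm39) was at 19.3, 22.1 and 19.8 CPM in IgG and 14.6, 12.9 and 15.9 CPM in IgG+Mino, groups that did not overlap. In APB5 it was at 22.7, 21.4 and 14.9 CPM and in APB5+Mino at 16.9, 17.9 and 15.2 CPM, and APB5 replicate 3 was the lowest of these 6. Its log2 fold change was −0.49 ± 0.143 (SE) in IgG+Mino against IgG (unadjusted p = 0.00652, adjusted p = 0.585, edgeR). Between APB5+Mino and APB5 it was −0.25 ± 0.169 (SE) (adjusted p = 0.310, edgeR), and −0.41 with an adjusted p of 0.0201, under the fold threshold, without APB5 replicate 3. The value of APB5 against IgG was −0.04 ± 0.179 (SE), and 0.12 without that library.

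Angptl2, a secreted protein of the angiopoietin-like family that does not bind Tie2 and is known from inflammation (chr2:33105946-33138252, plus strand, GRCm39), was at 9.45, 6.12 and 31.7 CPM in APB5. It was at 3.92, 7.96 and 3.89 CPM in IgG, 1.83, 4.36 and 7.27 CPM in IgG+Mino, and 3.51, 4.80 and 5.998 CPM in APB5+Mino. APB5 replicate 3 was far above the other 11 libraries, and the APB5 libraries were above those of APB5+Mino but overlapped those of IgG. The log2 fold change of APB5 against IgG was 1.60 ± 0.633 (SE) (unadjusted p = 0.0375, adjusted p = 0.664, edgeR), and 0.57 without APB5 replicate 3. Between APB5+Mino and APB5 it was −1.74 ± 0.612 (SE), with an adjusted p of 0.0962 in edgeR and 0.0119 in DESeq2, which called it. Leaving out APB5 replicate 3 gave −0.71 (adjusted p = 0.0594, edgeR), and edgeR made the call without APB5 replicate 2 (−2.13, adjusted p = 0.0402).

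Angptl4, an inhibitor of lipoprotein lipase that is induced by fasting and by hypoxia (chr17:33992724-34000804, minus strand, GRCm39), was at 2.03, 3.22 and 1.42 CPM in IgG and 4.54, 1.50 and 2.26 CPM in IgG+Mino. In APB5 it was at 1.34, 1.52 and 5.62 CPM, and in APB5+Mino at 3.72, 4.03 and 3.72 CPM. The APB5+Mino libraries were above APB5 replicates 1 and 2 and below APB5 replicate 3. With all libraries the log2 fold change of APB5+Mino against APB5 was 0.41 ± 0.548 (SE) (adjusted p = 0.612, edgeR). Leaving out APB5 replicate 3 gave 1.40 (adjusted p = 0.00232), past both thresholds. The Xist-low libraries, which also leave out that library, gave 1.41 (adjusted p = 0.0153), again past both. Against IgG+Mino it was 0.46 ± 0.342 (SE) (adjusted p = 0.403, edgeR), and 1.02 (adjusted p = 0.0109) without IgG+Mino replicate 1. In APB5 against IgG the value turned from 0.37 to −0.62 without APB5 replicate 3.

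**Figure D3:**
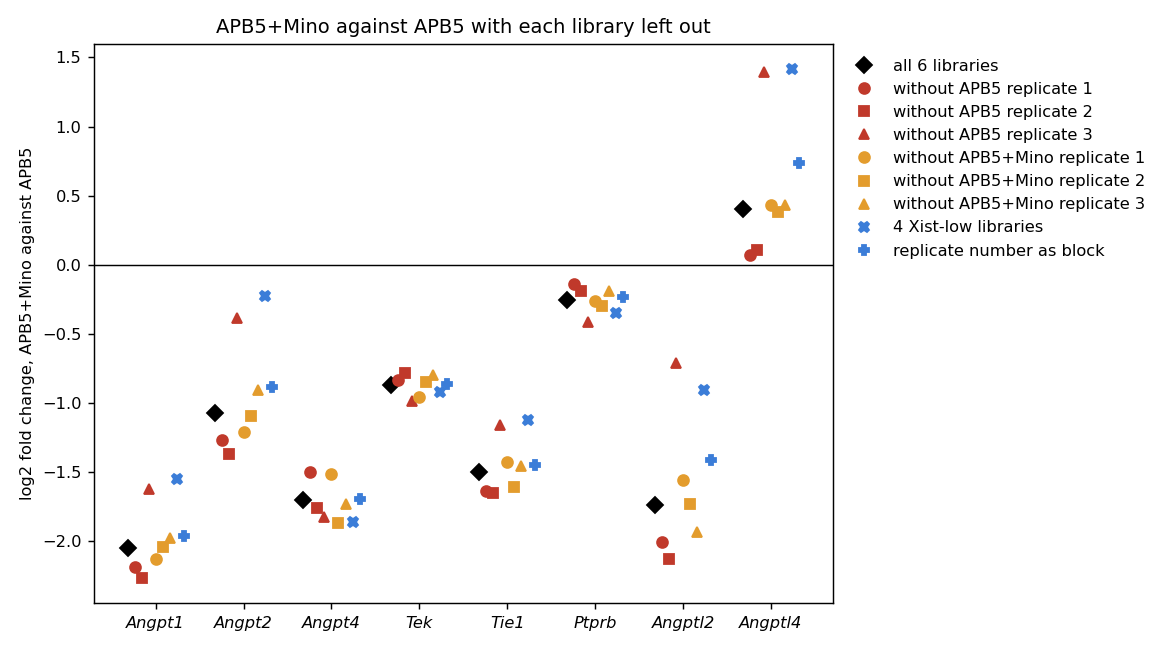
The log2 fold change of APB5+Mino against APB5 (y axis) is plotted for each gene with all 6 libraries (diamond), with each library left out, in the 4 libraries low in Xist, and with the replicate number as a block. Angpt1, Angpt4, Tek, Tie1, Angpt2, Angptl2 and Ptprb stay below 0 in all of these fits, and leaving out APB5 replicate 3 moves Angptl4 from 0.41 to 1.40.

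Because Tek, Tie1 and Ptprb are expressed mainly by endothelial cells, they were also expressed as a percentage of the summed CPM of the 12 endothelial markers, a measure chosen after the values were seen. That sum was 254.2 to 316.5 CPM in IgG, 238.3 to 303.9 in IgG+Mino, 303.1 to 368.5 in APB5 and 221.0 to 243.6 in APB5+Mino. The APB5+Mino libraries were thus below all APB5 libraries in the sum itself. Between APB5+Mino and APB5, all 12 markers had a log2 fold change below 0, with a median of −0.61. Cldn5, a tight junction gene, was called (1.66% of all genes). That call was lost with the replicate block, where edgeR called 0 of all genes.

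Relative to this sum, Tie1 was at 2.51 ± 0.575% in APB5 and 1.27 ± 0.129% in APB5+Mino (SD, n = 3 each), and the groups did not overlap (exact permutation p = 0.1). Tek was at 1.61 ± 0.409% and 1.22 ± 0.129% in the same groups, which overlapped (exact permutation p = 0.3), with APB5 replicate 3 at 1.14%. In IgG and IgG+Mino, Tek was at 2.42 ± 0.247% and 1.28 ± 0.183%, without overlap (exact permutation p = 0.1). For Tek, the APB5 libraries were also below all IgG libraries on this scale (exact permutation p = 0.1). Ptprb was at 7.35 ± 1.01% in IgG and 5.38 ± 0.987% in IgG+Mino, again without overlap, and at 6.17 ± 1.84% in APB5 and 7.15 ± 0.244% in APB5+Mino, which overlapped. The APB5+Mino libraries were above all IgG+Mino libraries for Ptprb (exact permutation p = 0.1). Angpt1 and Angpt4, taken relative to the same sum, kept the APB5+Mino libraries below all APB5 libraries (exact permutation p = 0.1 each). Angptl4 was higher in APB5+Mino, at 1.65 ± 0.0412% against 0.820 ± 0.611% in APB5 (SD, n = 3 each), without overlap (exact permutation p = 0.1). Angpt2 and Angptl2 overlapped between these groups. The part of endothelial content in the differences of CPM was not tested beyond these ratios.

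**Figure D4:**
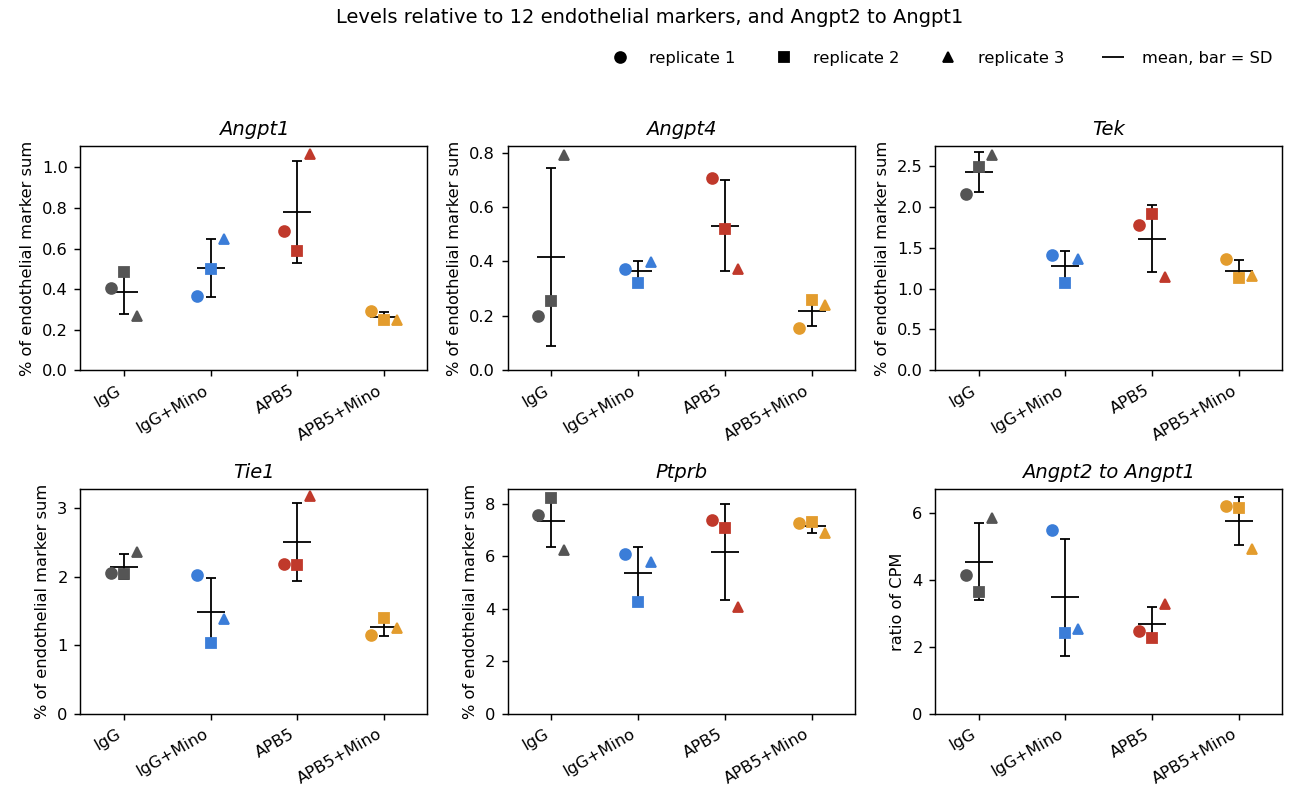
Levels of 5 genes as a percentage of the summed CPM of 12 endothelial markers, and the ratio of Angpt2 to Angpt1 (y axes, linear from 0), are plotted for the 12 libraries by group, with mean and SD of 3 libraries. Tie1 is lower in APB5+Mino (1.27%) than in APB5 (2.51%) on this scale too, and the ratio of Angpt2 to Angpt1 is lowest in APB5 (2.67).

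The authors' transcript tables give a mean normalized count per group, with no spread, and the tables were normalized separately. For Tek, the transcript NM_013690.3 had the authors' mean of 144.6 in IgG and 75.3 in APB5. It was listed at 0.186 in IgG+Mino and at 0 in APB5+Mino. The transcript NM_001290549.1 had means of 87.8 in IgG, 84.5 in IgG+Mino, 47.5 in APB5 and 108.6 in APB5+Mino, and NM_001290551.1 had means of 158.0, 103.4, 177.8 and 44.6 in the same order. For Angpt1, NM_009640.4 and XM_006520323.3 were listed at 0 in IgG and in APB5+Mino and at 34.5 and 56.0 in APB5, while NM_001286062.1 had a mean in every group, from 33.1 in APB5+Mino to 78.8 in IgG+Mino. Transcripts of a gene share exons, so these are estimates of how reads divide among them, and no test was possible on pooled values.

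Genes around the pathway were followed in 8 lists. Of 19 signalling partners of the Tie receptors (among them the PI3-kinase subunits, Akt1, Foxo1 and Nos3), 0 were called by edgeR in any comparison, with medians from −0.17 to 0.10 on the log2 scale. At an unadjusted p under 0.05 they numbered from 0 in IgG+Mino against IgG (8.37% of all genes) to 5 in APB5+Mino against IgG+Mino (29.3%). DESeq2 called 2, both in APB5+Mino against APB5 (8.07% of all genes). Of the Weibel-Palade body genes, the storage organelle of Angpt2, 6 of 8 were tested in APB5+Mino against APB5, and 1 was called (1.66% of all genes). This was Vwf, the clotting factor that gives the organelle its shape, which fell from 19.2 ± 2.97 to 5.71 ± 1.12 CPM (SD, n = 3 each), by 1.76 on the log2 scale (adjusted p = 0.0430, edgeR). All 6 were lower, with a median of −1.41 that was −0.57 at its smallest with a library left out. DESeq2 called 4 of the 6 (8.07% of all genes), and 4 had an unadjusted p under 0.05 in edgeR (35.9%).

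Among the 6 endothelial tip cell genes tested, Apln and Igfbp3 were called in APB5+Mino against APB5 (1.66% of all genes), DESeq2 called 5 (8.07%), 5 had an unadjusted p under 0.05 in edgeR (35.9%), and the median was −1.88, or −1.06 at its smallest with a library left out. Apln, the ligand of the apelin receptor, fell from 3.94 ± 0.435 to 1.51 ± 0.341 CPM (SD, n = 3 each; log2 fold change −1.38, adjusted p = 0.0461, edgeR). Igfbp3, which binds insulin-like growth factors, fell from 16.8 ± 10.03 to 4.38 ± 0.461 CPM (log2 fold change −1.95, adjusted p = 0.0480, edgeR). None of the list genes was called in this comparison with replicates blocked. Vwf, Apln and Igfbp3 were called without APB5 replicate 2 or 3, at log2 fold changes of −1.62, −1.44 and −1.33 without the latter, and not without APB5 replicate 1 or any 1 APB5+Mino library (adjusted p from 0.105 to 0.214). In APB5 against IgG the 6 tip cell genes were all higher. Their median was 1.09, or 0.43 at its smallest with a library left out. EdgeR called 0 of them (0% of all genes), 4 had an unadjusted p under 0.05 (7.23%) and DESeq2 called 1 (0.43%).

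The remaining lists concern Angptl4, its regulators and its relatives. Of 6 tested genes of the lipoprotein lipase axis and 12 tested PPAR targets, 0 were called by edgeR in any comparison. Up to 2 and 4 had an unadjusted p under 0.05, both in APB5+Mino against APB5 (35.9% of all genes) and in APB5+Mino against IgG+Mino (29.3%). DESeq2 called 2 of each in APB5+Mino against APB5 (8.07% of all genes). Of 16 tested HIF targets, Adm, a vasodilator peptide, was called in APB5+Mino against IgG+Mino, at 0.628 ± 0.324 against 0.157 ± 0.0383 CPM (SD, n = 3 each; log2 fold change 1.78, adjusted p = 0.0368, edgeR). Of 11 glucocorticoid-induced genes, Plin4, a lipid droplet protein, was called in the same comparison, at 10.99 ± 3.61 against 3.85 ± 1.62 CPM (SD, n = 3 each; log2 fold change 1.51, adjusted p = 0.0261, edgeR). At an unadjusted p under 0.05 there were 11 of the 16 HIF targets and 5 of the 11 glucocorticoid-induced genes in this comparison (29.3% of all genes), and DESeq2 called 0 and 1 (1.56%). Over the other 4 comparisons edgeR called 0 of either list, and DESeq2 called at most 2 of each, in APB5+Mino against APB5 (8.07% of all genes). Adm was lost without any library but IgG+Mino replicate 1 (adjusted p from 0.0680 to 0.122), and DESeq2 gave it no adjusted p. Plin4 was lost without IgG+Mino replicate 3 or any 1 APB5+Mino library (adjusted p from 0.0539 to 0.119). The other angiopoietin-like genes had 2 or 3 of 5 tested and 0 called by either tool. Up to 2 had an unadjusted p under 0.05, in APB5+Mino against APB5 (35.9% of all genes).

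Over the 12 libraries, the 5 genes whose log2 CPM correlated best with Tek among 15812 genes were Smc1a (Pearson r = 0.972), Abcb1a (0.950), Gm6123 (0.943), Ptk2 (0.931) and Trnau1ap (0.909). Abcb1a encodes P-glycoprotein, the drug efflux pump of the blood-retina barrier, and Ptk2 encodes focal adhesion kinase. Without APB5 replicate 3 the r of these 5 was 0.912 to 0.973. For Angpt2 the 5 were Acsl5, Nucb1, Cd63-ps, S100a10 and Ctsl, at r = 0.962 to 0.971, and at 0.831 to 0.868 without APB5 replicate 3. For Angptl4 they were Chst9, Bsdc1, Afg3l2, Rbbp8 and Pros1, at r = 0.891 to 0.907, and at 0.858 to 0.889 without that library. The points share 4 groups and the same libraries, and these are descriptions with no test.

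Some of the reads may belong to neighbours. Angpt2 lies within Mcph1, Angptl2 lies within Ralgps1, Angpt1 overlaps Gm17473 and Tie1 overlaps Gm70435, all on the opposite strand, and Ptprb overlaps the small gene models Gm47625, Gm66901 and Gm26495. Whether counting used strand is not stated, and without it the reads of such partners cannot be told apart.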

How the data were processed

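Strand-specific poly-A libraries were sequenced as single reads, and the authors aligned and counted them with the DRAGEN RNA pipeline (version not given in the sources used here) on mm39. The deposited gene table has raw read counts, and 3 repeated columns were not used. The deposited transcript tables hold a signal, the authors' mean normalized count per group. Their fold changes and p-values, and those of the gene result tables, were not used.

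CPM with TMM factors, filterByExpr, edgeR 4.0.16 quasi-likelihood tests (prior count 2, only the groups compared in a fit) and Benjamini-Hochberg adjustment were run in R 4.3.3, and tested on simulated data. The SE is the log2 fold change over the root of F. Alternatives used DESeq2 1.42.0, limma 3.58.1 voom, RLE or no scaling, other filters, a replicate block, Xist as a covariate, no fold threshold, and left-out libraries. Exon lengths and coordinates are from GENCODE on GRCm39.

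The members and gene lists were chosen with earlier results of these data known. Named are the 8 members, list genes that were called (at most 6 per list and comparison), the 5 genes most correlated with Angpt2, Angptl4 and Tek at a mean of at least 1 CPM, and Pdgfrb, Pecam1, Cdh5 and Xist as checks. Libraries share replicate numbers of unstated meaning. In APB5+Mino against APB5, deviations from group means correlated by 0.134 to 0.182 between libraries of the same number and by −0.157 to 0.019 otherwise, so the numbers may pair them. The main test has no block, since the meaning of the numbers is not stated, and the blocked value is given where it changes a call. Replicates 1 and 2 of both groups were low in Xist and replicate 3 of both was high. The part of Xist status in these correlations was not tested. In every other comparison at least 1 pair was under 0.1, and whether the numbers pair the libraries is not settled there either. In APB5+Mino against IgG+Mino, for example, libraries of the same number correlated by −0.024 to 0.200.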

Additional observations from a re-analysis of the deposited data

Results flagged for a closer look

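Angpt1 was marked because the effect of the antibody had opposite directions with and without minocycline in every library. The 3 APB5 libraries were above the 3 IgG libraries, and the 3 APB5+Mino libraries were below the 3 IgG+Mino libraries. The test of the difference itself, the interaction, gave −2.42 on the log2 scale with an adjusted p of 0.124 in edgeR, which does not pass, and 0.00120 in DESeq2. It includes IgG+Mino against IgG, where Xist status and minocycline cannot be told apart. Over the alternatives other than left-out libraries the adjusted p ranged from 0.00120 to 0.137, and with a library left out from 0.0446 (without APB5 replicate 2) to 0.358.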

How the results depend on the processing

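Under RLE scaling, no count filter, 10 counts in every library and no fold threshold, the same members were called as reported in all 5 comparisons. In APB5+Mino against APB5, 0 members were called by library size only (0.0247% of all genes), which moved the median of all genes from −0.02 to −0.11. The replicate block called 0 members (0% of all genes). Voom called 5 (Angpt1, Angpt4, Tie1, Tek and Angptl4), with 7.07% of all genes called. In APB5+Mino against IgG+Mino, 0 were called by library size only (1.26% of all genes), with all 12 libraries in one fit (0%), with Xist as a covariate (0%) and in the Xist-low libraries (0.00978%). In all but the first of these fits, almost no gene of any kind was called. In APB5 against IgG, 2 were called with Xist as a covariate (Angpt1 and Angptl2, both higher), a fit that called 5.57% of all genes. Xist status varied within a group only in APB5 and APB5+Mino, by replicate 3 of each, and APB5 replicate 3 is also the library that stood apart. Fits with this covariate therefore cannot tell Xist status from the other differences of that library, nor from minocycline in the IgG groups. In the interaction 1 was called by DESeq2 (2.22% of all genes), 3 by voom (4.93%) and 1 with Xist as a covariate (4.39%). The replicate block changed no other call, and kept Angpt1 in APB5+Mino against IgG+Mino at −1.09. Whether the replicate numbers pair the libraries is not settled in any comparison. With a library left out, 0 to 4 members were called in APB5+Mino against APB5, 0 to 2 in APB5+Mino against IgG+Mino, 0 to 1 in the interaction and 0 in the others. The fits with 4 members called had 8.59% and 4.48% of all genes called. Those with 2 and with 1 in the interaction had 2.24% and 0.52%. A fit with fewer libraries has fewer residual degrees of freedom.

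Direction turned only for log2 fold changes that were not called. By voom these were Ptprb (0.079) and Angptl4 (−0.69) in APB5 against IgG, Angpt4 (0.66) and Angptl4 (−0.21) in IgG+Mino against IgG, Angptl2 (−0.015) in APB5+Mino against IgG+Mino, and Tek (−0.19) in the interaction. With Xist as a covariate they were Angpt2 (0.44) and Angptl2 (0.99) in IgG+Mino against IgG, Angptl2 (−0.36) in APB5+Mino against IgG+Mino, and Angptl4 (−0.71) in the interaction. In the Xist-low libraries it was Angptl2 (−0.11) in APB5+Mino against IgG+Mino. With a library left out, the ranges that crossed 0 were −0.15 to 0.12 for Ptprb and −0.62 to 0.73 for Angptl4 in APB5 against IgG. In IgG+Mino against IgG they were −0.19 to 0.0030 for Angpt2, −0.67 to 0.69 for Angpt4, −0.76 to 0.20 for Angptl2 and −0.25 to 0.68 for Angptl4. They were −0.28 to 0.60 for Angptl2 in APB5+Mino against IgG+Mino, and −0.045 to 0.25 for Tek and −0.26 to 1.07 for Angptl4 in the interaction. The cause of these changes was not tested. In APB5+Mino against APB5 the direction of all 8 members was the same in all alternatives run. Of the 5 genes most like Tek, 3 stayed among its first 5 without APB5 replicate 3, and of those most like Angpt2 and Angptl4, 0. Low counts, down to 20 reads for Angpt4 and 29 for Angpt1, limit the precision.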
